A study of Mus musculus with 6 samples.

Results

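The genes described here make up the degradative machinery of the lysosome: 37 genes for lysosomal proteases, other acid hydrolases, the proton pump (V-ATPase), and proteins of the lysosomal membrane with a reductase and regulators. They were chosen by name and matched to array probes by symbol. Of the 37, 27 were measured, 1 (Atp6v0c) had no probe named in the annotation used, and 9 were not above background, out of 6331 genes and unnamed probes measured on the array. Dendritic cells (DCs), which present antigen to T cells, were sorted from peripheral lymph nodes of 2 groups of mice, one gavaged orally with broad-spectrum antibiotics over 10 days and one untreated, each with 3 arrays. The gavage protocol is written for the samples of both groups, and their titles and treatment labels alone separate them, so whether untreated mice were gavaged without drug is unknown. The antibiotics, the gate of the sort, the strain, sex and age of the mice and the number behind an array were not named in the labels. The comparison asked whether antibiotics altered gene expression in these DCs, and here it is read for the lysosome.

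Lysosomes break down what a cell takes up. The V-ATPase pumps protons into them, the acid pH activates cathepsins and other hydrolases, and the peptides produced are loaded on MHC class II in the same compartments. DCs are known to restrain lysosomal proteolysis more than macrophages do, which preserves peptides for presentation. The transcription factor TFEB is known to switch on many lysosomal genes together through a short promoter element.

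Correlations between arrays across all measured genes lay between 0.963 and 0.984, and from 6876 to 7674 probes were detected per array. Antibiotics replicate 1 stood apart on the first principal component, at -25.3 where the other arrays lay between 1.36 and 11.5. Of the DC core markers, 8 of 10 were detected on all 6 arrays, among them Itgax (CD11c), Zbtb46 and H2-Ab1, while Flt3 was detected on 0. Of the T cell markers 5 of 6 with a probe were detected on 0 arrays, Cd3e among them, and Cd5 on 3. Of the B cell markers 4 of 7 were on 0, Cd79a among them, while Cd79b was on all 6 and Fcmr and Cd22 on 5. Of the neutrophil markers 6 of 8 were on 0, S100a8 among them, while Csf3r and Elane were on all 6. Of all 6331 genes, 0 (0%) passed limma's test at an adjusted p of 0.05, the lowest being 0.214. Before adjustment 490 had p under 0.05 (7.74%), 3.41% higher and 4.33% lower after antibiotics. The groups did not overlap in 870 genes (13.7%).

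Among the lysosomal genes 0 of 27 passed as well, with limma adjusted p-values from 0.575 to 0.986, and 1 (Ifi30) had an unadjusted p under 0.05. Their fold changes were small: 15 lay above and 12 below the untreated level (53.5% and 46.4% over all genes), the median log2 fold change was 0.020 where that of all genes was 0.017, and no member differed by more than 0.38 on the log2 scale. The groups did not overlap in 8 of the 27 members (29.6%), 6 lower and 2 higher after antibiotics. Over all genes the corresponding share was 6.62% lower and 7.12% higher, and over the 5276 genes detected on all 6 arrays it was 6.58% lower and 7.41% higher, or 14.0% in all. Because the members sit on the same arrays, the 8 are not independent observations. With median scaling in place of quantile normalization 7 of 27 members lay above and 20 below, 2 of 27 (7.41%) did not overlap (Ctsh and Ifi30, both lower), a share below the 10.1% of all genes in that setting, and over all genes 40.6% lay above. Without antibiotics replicate 1 the split was 11 above and 15 below (median -0.021), without antibiotics replicate 3 it was 13 and 14, and without untreated replicate 2 it was 12 and 15 (median -0.045). Thus the split between higher and lower members turned with the scaling and with single arrays.

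**Figure D1:**
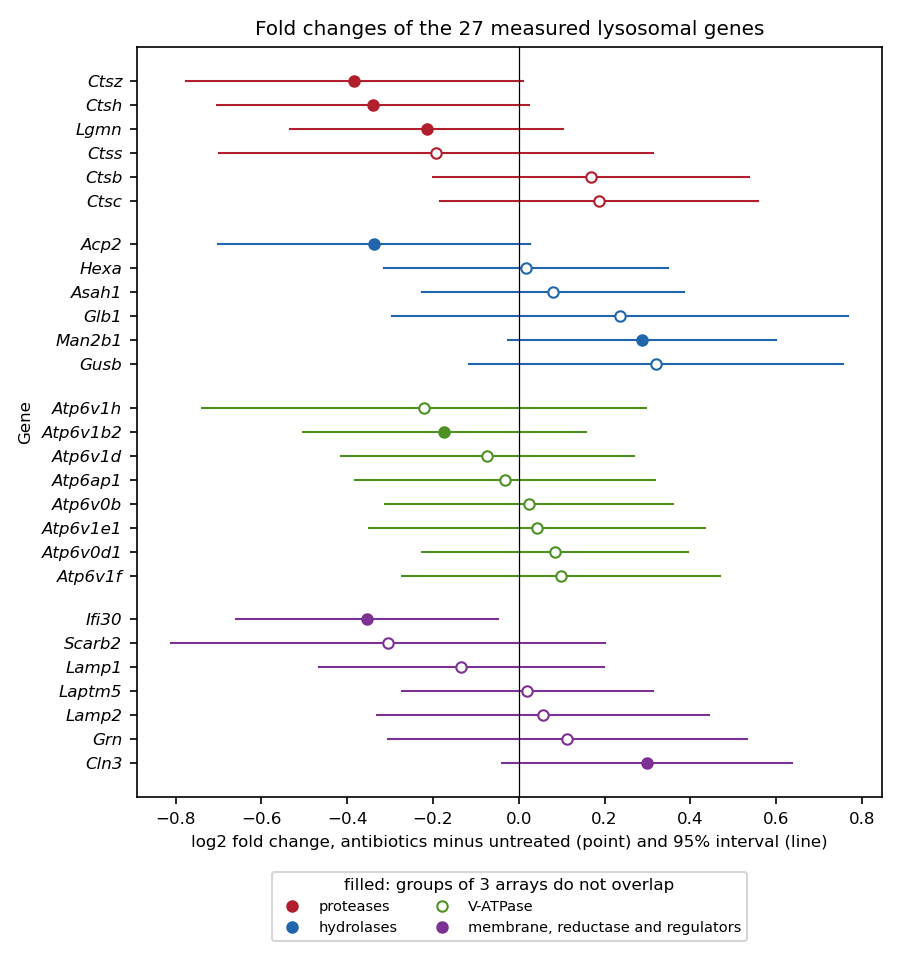
Log2 fold change (antibiotics minus untreated, horizontal axis) of each of the 27 measured lysosomal genes, with its 95% interval from limma as a line, by subgroup in colour. Filled points mark the 8 genes whose groups did not overlap, and the interval leaves out 0 only for Ifi30.

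Of the 6 measured proteases 3 (50%) were lower without overlap, where 6.62% of all genes were. They made up 3 of the 6 members that were lower without overlap. With median scaling 1 protease was lower without overlap, where 10.1% of all genes did not overlap in either direction. Of 10 listed, 6 were measured, 4 lower and 2 higher, with a median of -0.20, and with median scaling the split was also 4 to 2. The 3 proteases lower without overlap in the reported setting were Ctsz, Ctsh and Lgmn. The mean log2 level of the 6 was 9.47, 9.45 and 9.47 on the antibiotics arrays and 9.59, 9.65 and 9.55 on the untreated arrays. All 3 antibiotics arrays thus lay below all 3 untreated arrays, by 0.13 on average. With median scaling these ranges met, at 9.21 to 9.53 after antibiotics and 9.52 to 9.88 without.

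Ctsz, which encodes cathepsin Z, a carboxypeptidase that trims proteins from their end, stood at a log2 signal of 7.77, 8.10 and 7.95 after antibiotics and at 8.12, 8.25 and 8.60 without. The groups touched closely, between 8.10 and 8.12. The log2 fold change was -0.38 (SE 0.17, limma adjusted p = 0.635), a level 1.30-fold lower, and a further probe of the gene gave -0.37. Without untreated replicate 3 it was -0.25. Ctsh encodes cathepsin H, an aminopeptidase. Its signal was 12.06, 12.28 and 12.31 after antibiotics and 12.78, 12.49 and 12.39 without. Every antibiotics array was under every untreated array, with a log2 fold change of -0.34 (SE 0.16, adjusted p = 0.653), and this order held with median scaling. Lgmn encodes legumain, the asparaginyl endopeptidase that cuts some antigens and activates other cathepsins. Legumain signal was 7.53, 7.66 and 7.78 after antibiotics and 7.80, 7.86 and 7.95 without, which gave a log2 fold change of -0.22 (SE 0.14, adjusted p = 0.763).

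Ctss encodes cathepsin S, the protease that cuts the invariant chain from MHC class II in DCs. Its signal was 7.30, 7.17 and 7.30 after antibiotics and 7.16, 7.97 and 7.22 without. The groups overlapped, and untreated replicate 2 alone stood high. The log2 fold change of -0.19 (SE 0.22) became 0.067 without that array, and the protease median became -0.076. Ctsb, an endopeptidase and carboxypeptidase, and Ctsc, which activates serine proteases of granules, overlapped between groups, with log2 fold changes of 0.17 (SE 0.16) and 0.19 (SE 0.16). Without antibiotics replicate 1 they stood at 0.036 for Ctsb and 0.097 for Ctsc, and Ctsc stood at 0.29 and 0.11 without untreated replicates 1 and 3. Other probes for Ctsc gave 0.22 and -0.024 and so differed in sign. The probes for Ctsd, Ctsl and Ctsa were detected on 0 arrays and that for Tpp1 on 1, so these 4 proteases have no fold change here.

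**Figure D2:**
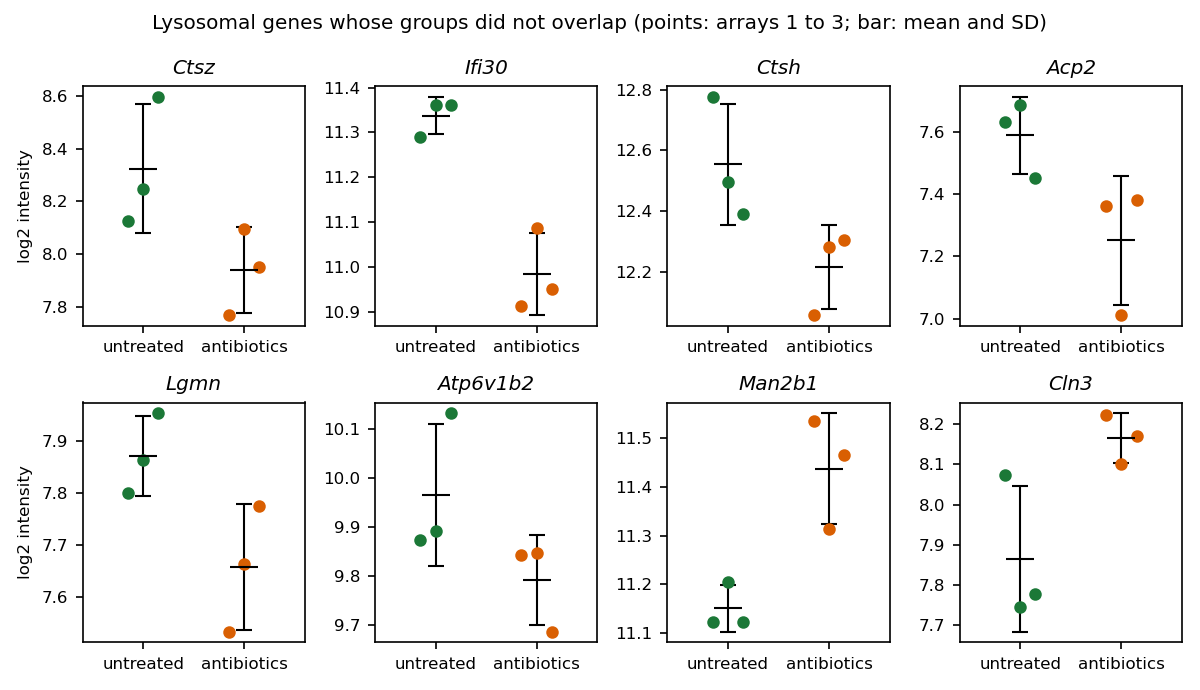
Log2 intensity (vertical axis, a separate scale per gene) on each of the 3 untreated and 3 antibiotics arrays for the 8 lysosomal genes whose groups did not overlap, with the group mean and SD as bars. The first 6 panels are lower after antibiotics and Man2b1 and Cln3 higher, and with median scaling only Ctsh and Ifi30 kept their groups apart.

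The other acid hydrolases, which cleave sugars, lipids and phosphate esters, lay mostly above the untreated level. Of 8 listed, 6 were measured, 5 higher and 1 lower, with a median of 0.16, but with median scaling 3 lay above and 3 below, at a median of 0.051. Their mean log2 level was 9.55, 9.41 and 9.47 after antibiotics and 9.38, 9.33 and 9.42 without, so the groups overlapped. Leaving out antibiotics replicate 1 brought the hydrolase median to 0.065, and leaving out untreated replicate 2 brought it to 0.064. The difference between the protease and hydrolase medians was not tested.

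Man2b1 encodes lysosomal alpha-mannosidase, which trims mannose from glycoproteins. Its signal was 11.53, 11.31 and 11.46 after antibiotics and 11.12, 11.21 and 11.12 without. All 3 antibiotics arrays lay above the untreated arrays, with a log2 fold change of 0.29 (SE 0.14, limma adjusted p = 0.658). Acp2, a lysosomal acid phosphatase, was the 1 hydrolase below the untreated level, at 7.36, 7.01 and 7.38 after antibiotics and 7.63, 7.69 and 7.45 without. Here all antibiotics arrays lay below the untreated arrays, and the log2 fold change was -0.34 (SE 0.16, adjusted p = 0.656), or -0.22 without antibiotics replicate 2. Gusb encodes beta-glucuronidase. Its signal was 11.35, 11.46 and 11.50 after antibiotics and 10.74, 11.17 and 11.44 without, so that the groups overlapped through untreated replicate 3. The log2 fold change was 0.32 (SE 0.19), and a dimmer Gusb probe detected on 3 arrays gave -0.12, the opposite sign. Without untreated replicate 1, the lowest array, Gusb stood at 0.13, and without untreated replicate 3 at 0.48.

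Glb1 (beta-galactosidase) stood at 0.24 (SE 0.23), but at 0.042 without antibiotics replicate 1, whose signal of 7.71 was the highest of the 6 arrays. Asah1 (acid ceramidase) and Hexa (a beta-hexosaminidase subunit) lay at 0.080 (SE 0.13) and 0.017 (SE 0.15), and with median scaling both lay below 0, at -0.039 and -0.085. The probes for Gla and Lipa were detected on 0 arrays.

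**Figure D3:**
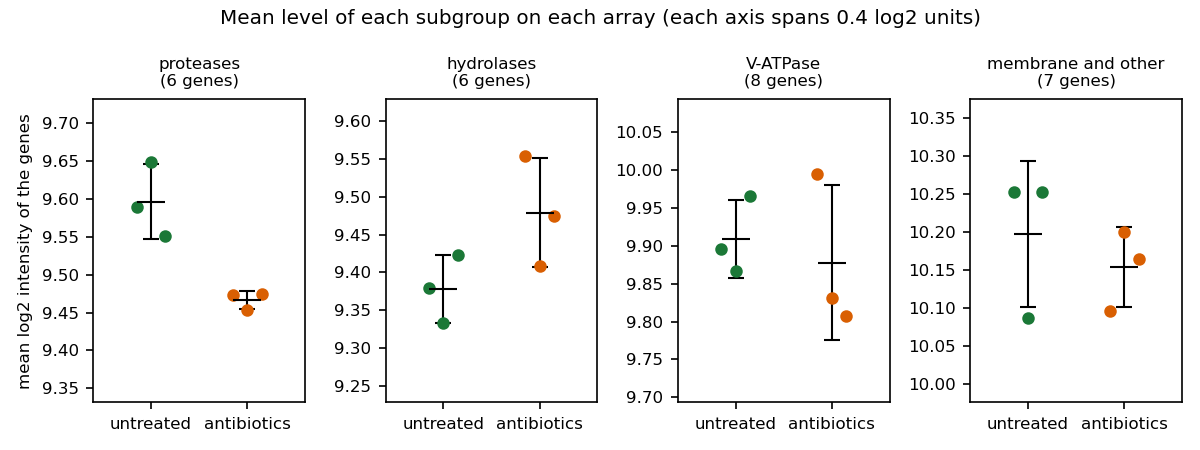
Mean log2 intensity of the measured genes of each subgroup (vertical axis, each spanning 0.4 units) on each array, with the group mean and SD as bars. Only for the proteases do the 3 antibiotics arrays (9.45 to 9.47) lie apart from the untreated arrays (9.55 to 9.65), and with median scaling these ranges met.

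The V-ATPase genes spanned the narrowest range of the 4 subgroups. Of 10 listed, 8 were measured, 4 higher and 4 lower, with a median of -0.0046 and fold changes between -0.22 and 0.098 on the log2 scale. With median scaling all 8 lay below the untreated level, at a median of -0.10, where the median of all genes was -0.054. The mean log2 level of the 8 was 9.99, 9.83 and 9.81 after antibiotics and 9.90, 9.87 and 9.97 without, and the groups overlapped. The 95% intervals of the 8 fold changes all held 0, and their width differed by gene. The widest, of Atp6v1h, ran from -0.74 to 0.30, and the narrowest, of Atp6v0d1, from -0.23 to 0.39. For each gene, differences within its own interval could not be told from 0 with 3 arrays per group.

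Atp6v1b2, an ATP-binding subunit of the cytosolic V1 sector, was the 1 pump gene whose groups did not overlap (12.5% of the 8, against 13.7% of all genes). Its signal was 9.84, 9.85 and 9.69 after antibiotics and 9.87, 9.89 and 10.13 without, a log2 fold change of -0.17 (SE 0.14, limma adjusted p = 0.808). The gap between the groups, from 9.85 to 9.87, was small beside their spread, and without untreated replicate 3 the log2 fold change was -0.090. Atp6v1h, a regulatory V1 subunit, gave 7.69, 7.46 and 7.53 after antibiotics and 7.25, 8.02 and 8.07 without. Its untreated arrays lay on both sides of the antibiotics arrays, and the log2 fold change of -0.22 (SE 0.23) was -0.49, -0.10 and -0.077 without untreated replicates 1, 2 and 3 in turn.

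In the membrane-embedded V0 sector, Atp6v0d1, which links it to the stalk, stood at 9.25, 9.12 and 9.03 after antibiotics and 9.01, 9.03 and 9.11 without, with a log2 fold change of 0.085 (SE 0.14) and 0.12 by a further probe. Atp6v0b, a subunit of the proton-carrying ring, lay at 0.023 (SE 0.15). Atp6ap1, an accessory protein of pump assembly, gave a signal of 11.99, 12.10 and 12.07 after antibiotics and 12.24, 11.85 and 12.17 without, with a log2 fold change of -0.032 (SE 0.15). The groups overlapped for all 3 of these genes. The V1 subunit genes Atp6v1d, Atp6v1e1 and Atp6v1f lay at -0.073, 0.042 and 0.098. The catalytic V1 subunit gene Atp6v1a was detected on 0 arrays.

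Among the membrane proteins, the reductase and the regulators, 7 of 9 listed were measured, 4 higher and 3 lower, with a median of 0.020, and with median scaling 2 lay above and 5 below, at -0.070. Ifi30 encodes GILT, the thiol reductase that opens disulfide bonds of antigens in the lysosome and is induced by interferon-gamma. Its signal was 10.91, 11.09 and 10.95 after antibiotics and 11.29, 11.36 and 11.36 without. The antibiotics arrays all lay below the untreated arrays, and the gap between the groups exceeded the range within each. Ifi30 had the lowest p-value of the 27 members, with a log2 fold change of -0.35 (SE 0.13, unadjusted p = 0.0276, limma adjusted p = 0.575), which is 1.28-fold lower, and a further probe gave -0.31. Over the 15 alternatives its log2 fold change ran from -0.46 to -0.32.

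Cln3 encodes a lysosomal membrane protein that is mutated in juvenile Batten disease in humans. Its signal was 8.22, 8.10 and 8.17 after antibiotics and 8.07, 7.75 and 7.78 without. All antibiotics arrays lay above the untreated arrays, by a log2 fold change of 0.30 (SE 0.15, limma adjusted p = 0.683). Scarb2, the receptor that carries glucocerebrosidase to lysosomes, gave 6.41, 7.25 and 6.95 after antibiotics and 7.07, 7.09 and 7.37 without. The groups overlapped, and the log2 fold change of -0.30 (SE 0.22) was -0.074 without antibiotics replicate 1, the lowest array.

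The abundant lysosomal membrane glycoproteins differed little. Lamp1 stood at 11.88, 12.04 and 12.15 after antibiotics and 12.23, 12.02 and 12.22 without, with overlap and a log2 fold change of -0.13 (SE 0.15). Lamp2 stood at 0.056 (SE 0.17), and its other probes at 0.11 and 0.35. Grn (progranulin, a lysosomal growth factor precursor) lay at 0.11 (SE 0.18) and at -0.021 without antibiotics replicate 1. For Laptm5, a lysosomal membrane protein of blood cells, the log2 signal was 13.82, 13.76 and 13.76 after antibiotics and 13.76 on all 3 untreated arrays. Quantile normalization gives equal values to probes of the same top rank, so this near-identity is partly set by the processing, and the deposited Laptm5 intensities ran from 13063 to 15233. The regulator Tfeb itself was detected on 0 arrays with both of its probes, and the lysosomal calcium channel gene Mcoln1 on 1.

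The detection filter divided the members cleanly. All 27 measured members were detected on all 6 arrays, the 9 others with a named probe on 1 array (2 genes) or 0 arrays (7 genes), and none on 2 to 5. So no member entered through 1 group alone. A signal below background is only a bound for that probe, and no level was compared between probes.

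Some promoters of these genes hold the E-box, the core of the element known to be bound by TFEB and related factors, and 3 are shown because the gene was Ifi30, the member with the lowest p, Cln3, the other direction, or Lamp1, the promoter with the most copies. Sequences run from 250 bases before to 50 after an annotated start, 5′ to 3′ on the strand of the gene, from RefSeq on GRCm38.p6, with the E-box CACGTG in capitals. The Ifi30 window lies at chr8:70766614-70766913 (minus strand), the Lamp1 window at chr8:13158911-13159210 (plus strand) and the Cln3 window, at a start inside the annotated gene, at chr7:126583187-126583486 (minus strand).
Ifi30: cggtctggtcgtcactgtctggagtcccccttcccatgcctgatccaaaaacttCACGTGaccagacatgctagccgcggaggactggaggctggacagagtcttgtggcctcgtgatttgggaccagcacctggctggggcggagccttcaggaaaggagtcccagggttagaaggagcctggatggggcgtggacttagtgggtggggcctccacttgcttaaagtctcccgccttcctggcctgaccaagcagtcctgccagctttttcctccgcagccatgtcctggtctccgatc
Lamp1: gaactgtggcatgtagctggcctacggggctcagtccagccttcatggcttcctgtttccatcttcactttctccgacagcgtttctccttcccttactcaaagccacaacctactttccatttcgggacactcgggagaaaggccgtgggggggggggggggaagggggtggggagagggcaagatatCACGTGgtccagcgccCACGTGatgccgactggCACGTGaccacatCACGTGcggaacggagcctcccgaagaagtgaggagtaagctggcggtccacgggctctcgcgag
Cln3: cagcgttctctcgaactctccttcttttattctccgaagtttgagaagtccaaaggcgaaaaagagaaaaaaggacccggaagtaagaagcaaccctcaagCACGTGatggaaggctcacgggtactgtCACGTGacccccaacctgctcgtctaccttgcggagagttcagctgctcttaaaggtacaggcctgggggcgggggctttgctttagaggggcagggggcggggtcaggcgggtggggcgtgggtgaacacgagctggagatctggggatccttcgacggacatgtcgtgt

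In Ifi30 the E-box begins at position -196 from the start and is part of the longer TCACGTGA. Lamp1 held 4 copies of the E-box, the first at position -61, and none of the longer form. Cln3 held 2 copies, at -149 and -121, and the 1 member promoter with the full 10-base element GTCACGTGAC, while its outer promoter window held none. Each of these motifs reads the same on both strands, and the longer ones contain the shorter. Promoter windows were found for 32 of the 37 members. Of the 32, 13 (40.6%) held CACGTG in at least 1 window, against 8.09% of all 27025 genes with a window and 12.3% of the 4866 array-measured genes with one. TCACGTGA stood in 8 of 32 members (25%), against 1.12% and 2.24%, and GTCACGTGAC in 1 (3.12%), against 0.37% and 0.822%. Among measured members alone, the like set for the measured genes, 7 of 22 (31.8%) held CACGTG, 3 (13.6%) TCACGTGA and 1 (4.55%) GTCACGTGAC, so 5 of the 8 members with TCACGTGA were not measured. The GC content of the windows was 57.5% for members, 53.8% for all and 60.0% for measured genes. The longer TCACGTGA was present in promoters of genes on both sides of the untreated level, Ifi30 at -0.35 and Cln3 at 0.30, and the windows of Ctsz, Acp2 and Man2b1 held no CACGTG. Lgmn held 1 CACGTG, in the window of an inner start. No window was found for Ctsb, Ctsh, Asah1, Atp6v1b2 and Atp6v1h in the promoter sequences used. A match describes these letters and not binding.

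The wider lysosomal pathway showed no common direction. In 7 companion lists of other lysosomal genes 73 of 140 were measured, of which 44 lay above and 28 below the untreated level and 1 at 0, with a median log2 fold change of 0.035 and -0.052 with median scaling. No companion passed, with 0 at an adjusted p of 0.05 in limma and 6 (8.22%) at an unadjusted p under 0.05, 5 higher and 1 lower, where the share of all genes was 7.74%. The groups did not overlap in 9 (12.3%, against 13.7% of all genes), 6 higher and 3 lower.

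Among other hydrolases and their activators 19 were measured, 9 above, 9 below and 1 at 0. Arsb (arylsulfatase B, which removes sulfate from glycosaminoglycans) stood at 9.34, 9.05 and 9.08 after antibiotics and 8.31, 8.80 and 8.88 without, a log2 fold change of 0.49 (SE 0.19, adjusted p = 0.575). Gm2a, the activator protein for ganglioside breakdown by hexosaminidase, stood at 12.07, 11.96 and 11.97 after antibiotics and 11.76, 11.66 and 11.48 without, a log2 fold change of 0.37 (SE 0.14). Galc (galactosylceramidase) lay at 0.36 (SE 0.16). In all 3 the antibiotics arrays lay above the untreated arrays. These were 3 of the 19 (15.8%), with none lower, where 7.12% of all genes were higher without overlap and 13.7% did not overlap in either direction. Of other lysosomal proteases 4 were measured, 3 above and 1 below, with a median of 0.19, opposite in sign to that of the member proteases. They were led by Napsa (napsin A, an aspartic protease) at 0.30 (SE 0.18), with Prcp at 0.15 and Cpq at 0.22, all with overlap.

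Cd63, a tetraspanin of late endosomes and lysosomes, had the lowest p-value of all lysosomal genes examined. Its signal was 9.70, 9.76 and 9.76 after antibiotics and 10.40, 10.50 and 9.95 without, with no overlap and a log2 fold change of -0.54 (SE 0.17, limma adjusted p = 0.511), and a further probe gave -0.67. In the same list Cd164 lay at 0.30 (SE 0.14) without overlap and Slc11a1 (NRAMP1, a metal transporter of phagosomes) at 0.37 (SE 0.20) with overlap. Of sorting genes Igf2r, the cation-independent mannose 6-phosphate receptor that delivers hydrolases to lysosomes, stood at 5.99, 6.60 and 6.77 after antibiotics and 5.10, 5.76 and 6.31 without. Those groups overlapped, with a log2 fold change of 0.73 (SE 0.32, adjusted p = 0.634). The adaptor gene Gga1 lay at -0.32 (SE 0.14) without overlap, and Vps41 at 0.28.

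Other pump subunits overlapped in all 10 genes measured, with Atp6v1c1 at -0.53 (SE 0.31), Atp6v0a2 at 0.28 and Atp6v0a1 at -0.24. The signal of Atp6v1c1, detected on 2 of the 3 antibiotics arrays, was 4.92, 5.81 and 6.33 after antibiotics and 6.19, 6.22 and 6.23 without. Antibiotics replicate 1 was thus the lowest array, and antibiotics replicate 3 the highest. Among regulators of the lysosome, Lamtor2, part of the Ragulator complex that brings mTORC1 to lysosomes, stood at 0.41 (SE 0.16, adjusted p = 0.605) without overlap, and Fnip1 at 0.39 with overlap. Zkscan3, known as a repressor of lysosomal genes, was detected on all 3 untreated and on 0 antibiotics arrays, so it passed the filter only through the untreated group, which fixes its direction and its place among the lower companions without overlap. The untreated mean was 1.06-fold above the lowest signal of detected probes, or the probe's own where that was higher. This ratio takes no account of spread between arrays. The log2 fold change was -0.28 (SE 0.15), and its interval from limma, from -0.61 to 0.055, held 0. A lower level of Zkscan3 after antibiotics was therefore not shown. Of the cathepsin inhibitors Cst3 (cystatin C) lay at 0.054, Cst7 (cystatin F) at 0.12 and Serpinb1a at -0.24, with overlap in all 5 measured.

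**Figure D4:**
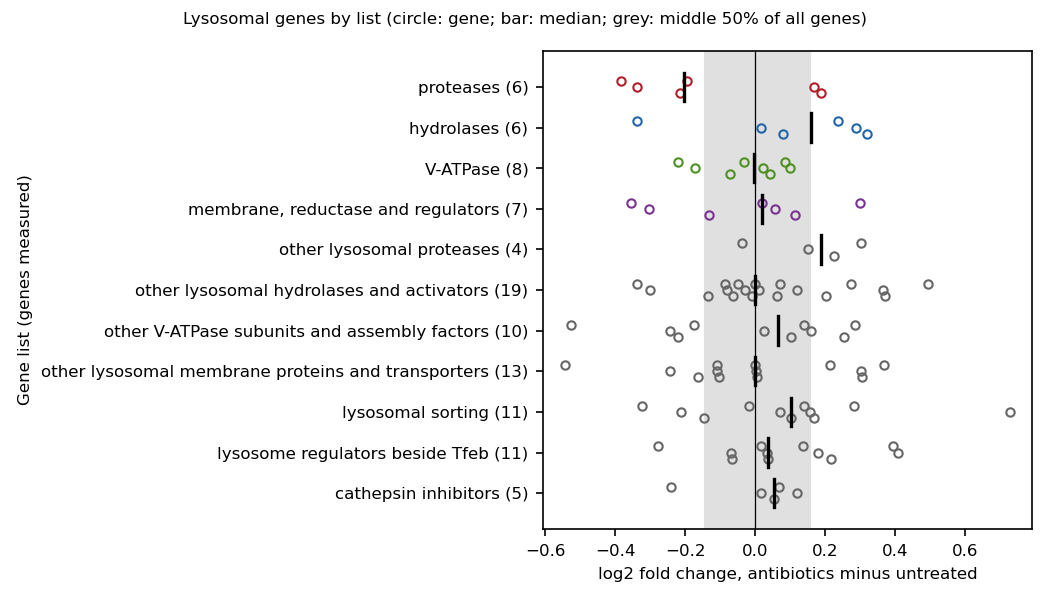
Log2 fold change (antibiotics minus untreated, horizontal axis) of each measured gene of the 4 lysosomal subgroups (coloured) and 7 companion lists (grey circles), with list medians as bars. The grey band is the middle 50% of all genes, from -0.143 to 0.156. The protease median, at -0.20, lies below it while the V-ATPase median lies inside. The median of other lysosomal proteases (0.187) lies above it, and that of the hydrolases (0.158) just above.

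Summed levels of some other cell markers also stood apart between the groups. Of the macrophage and monocyte markers 7 were measured of 13 with a probe, 6 above and 1 below the untreated level, and their summed linear intensity ran from 1875 to 2090 on the antibiotics arrays and from 1248 to 1722 on the untreated arrays, without overlap. Lyz2 made up 64.1% to 73.7% of that sum, and without it the groups overlapped, at 494 to 628 after antibiotics and 448 to 526 without, a sum added after the data were seen. Within the list Lyz2 lay at 0.54, Mrc1 at 0.52, Adgre1 at 0.33, Cd163 at 0.23, C1qa at 0.029, C1qb at 0.018 and Cd14 at -0.080, while Mertk, Fcgr1, C1qc, Ccr2, Siglec1 and Marco were detected on 0 arrays. The cDC1 markers, of a conventional DC subset, summed to between 2265 and 2359 after antibiotics and 2003 and 2182 without, with 5 of 5 measured members above, and Clec9a and Cd8a on 0 arrays. Irf8, the brightest, lay at 0.16 and Cadm1 at 0.78, both without overlap, while Batf3 (0.025), Itgae (0.32) and Xcr1 (0.32) overlapped. B cell markers summed to 238 to 279 after antibiotics and 307 to 364 without, with 3 of 3 measured below and Cd79a, Ms4a1, Pax5 and Blk on 0 arrays. Cd79b, the brightest of the 3, lay at -0.057 and Cd22 at -0.79, both with overlap, and Fcmr at -1.06 without overlap. Fcmr and Cd22 were dim, and each was detected on 2 of the 3 antibiotics arrays. Plasmacytoid DC markers summed to 598 to 690 after antibiotics and 695 to 877 without, with 3 of 3 measured below and Ccr9 on 0 arrays. Singly, Bst2 (-0.36), Cox6a2 (-0.33) and Tcf4 (-0.22) each overlapped. DC core sums overlapped, at 28921 to 30136 after antibiotics and 28770 to 29995 without, and the cDC2, T cell and neutrophil sums overlapped too. By mean log2 level, the measure used for the proteases, the 8 measured DC core markers did not overlap. They stood at 9.47, 9.60 and 9.52 after antibiotics and 9.65, 9.62 and 9.68 without, lower by 0.12 on average. Of the 8, 5 lay below, 2 above and 1 at 0. The part of these cells in the lysosomal values was not tested, and in such bulk samples fewer cells of a type and less RNA per cell cannot be told apart.

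**Figure D5:**
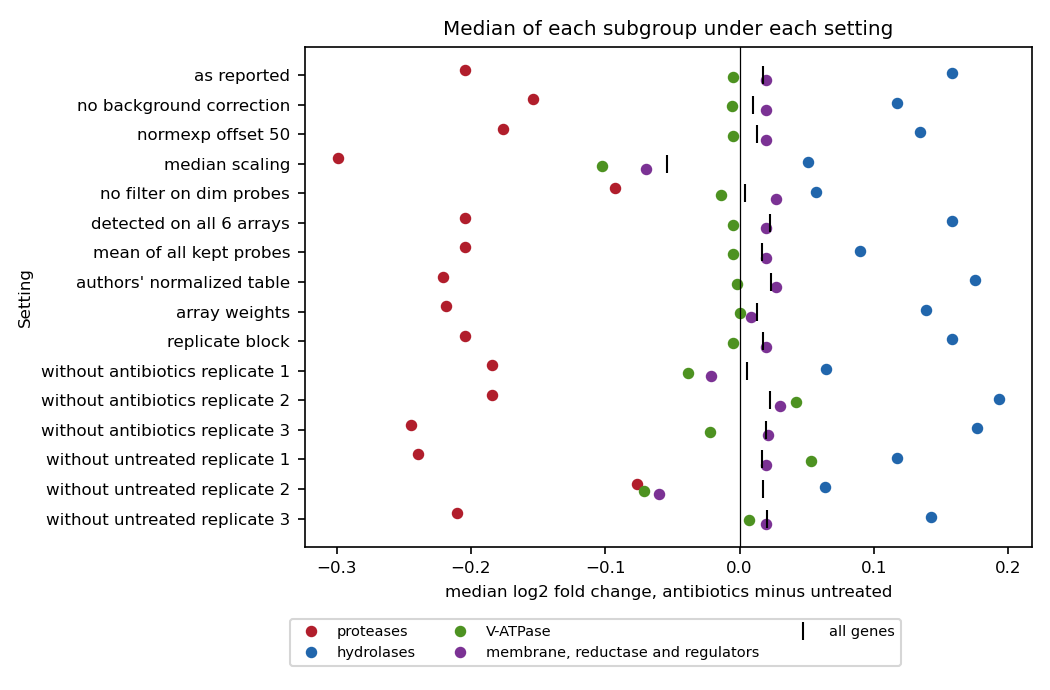
Median log2 fold change (horizontal axis) of the 4 lysosomal subgroups (coloured points) and of all genes (black ticks) under the reported setting and 15 alternatives. The protease median lies below 0 in all of them, from -0.30 to -0.076, and the hydrolase median above 0, from 0.051 to 0.19.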

How the data were processed

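Sorted dendritic cells' total RNA was hybridised to Illumina mouse bead arrays, 3 per group, grouped by sample title. No label calls the replicates separate animals, so p-values may reflect technical spread only.

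The authors deposited unnormalized probe intensity (array medians 84.7 to 89.2) and a detection p-value per probe, per the file headers. The authors also deposited normalized intensity, linear and uncentred, with array medians of 1.1 to 1.2 and 44.6% of values below 0. Its method was not stated, and the series' value table equalled it in all 154182 cells.

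The unnormalized intensity was processed with neqc in limma 3.58.1 (R 4.3.3): normexp correction using the detection p-values, an offset of 16, quantile normalization and log2. This understates fold changes of dim genes and removes shifts common to all genes. Probes detected (p under 0.05) on 3 or more arrays were kept (7507 of 25697), and each gene was represented by its brightest probe, leaving 6331 rows. The platform annotation named 1 gene for 23978 probes, several for 0 and none for 1719. The groups were fitted with lmFit and eBayes, adjusted by Benjamini-Hochberg over all rows at a threshold of 0.05. The fit was tested on simulated data with each gene's own mean and within-group spread and 200 genes changed. At an adjusted p under 0.05 limma recovered 0 of 200 at a log2 change of 0.5. It recovered 137 (68.5%) at a change of 1 and 195 (97.5%) at 2. Changes of 0.5 or less would thus be missed by this fit, whether present or not. An exact permutation test of 1 value in 3 arrays against 3 cannot go below 0.1.

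Members, lists and alternatives were chosen with earlier results of these data known. Array values are given per subgroup for the 3 members with the smallest p and the brightest one. Ctss and Lamp1 were added after their values were seen, as were all companions with array values. In each companion list, up to 3 genes with the smallest p are named. Whether the replicate numbers pair arrays is not stated, and the arrays were treated as unpaired. Same-numbered arrays' deviations correlated at r = -0.046, -0.060 and -0.15, which cannot decide it.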

Additional observations from a re-analysis of the deposited data

How the results depend on the processing

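In each of the 15 alternatives 0 genes passed an adjusted p of 0.05 in limma (490 at an unadjusted p under 0.05 in the reported setting), and the lowest adjusted p ranged from 0.0940 (array weights) to 0.677. The replicate block also gave 0, with a smallest adjusted p of 0.590, and left the medians as they were. No label states that the replicate numbers pair arrays, so the block has no stated basis. In their deviations none of the 6 arrays correlated best with the array of its own number, which with so few arrays cannot decide it. The protease median was -0.15 without background correction, -0.30 with median scaling and -0.092 with dim probes kept, which brings in 4 proteases at background. The hydrolase median was 0.051 with median scaling, 0.057 with dim probes kept and 0.090 with the mean of all kept probes. With median scaling the V-ATPase median was -0.10, that of membrane proteins, reductase and regulators -0.070 and that of the companions -0.052, where all genes lay at -0.054. Leaving out 1 array at a time gave -0.24 to -0.076 for proteases, 0.064 to 0.19 for hydrolases, -0.071 to 0.054 for the V-ATPase, -0.060 to 0.030 for membrane proteins, reductase and regulators and 0.025 to 0.075 for companions. Of the 27 members, 15 kept the sign of their fold change in all 15 alternatives, among them all 11 with a log2 fold change of at least 0.2 in size. Member fold changes could not differ with the replicate block, with detection required on all 6 arrays or with dim probes kept. All alternatives reuse the same 6 arrays, so the kept signs are not independent evidence. The cause of these shifts was not tested where no reason is given. The number of arrays limits the precision.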
